A study of Mus musculus with 6 samples.

Results

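The genes described here encode the machinery that builds and supplies the primary cilium: 37 genes, taken by name from the 57010 rows of the deposited count table. They cover the intraflagellar transport (IFT) trains, the BBSome, the motors kinesin-2 and dynein-2, small GTPases of the ARF-like family, the basal body and the transition zone. All 37 symbols matched 1 row each, and all 37 passed the filter on low counts. The cells were CT26, a line from a mouse colon carcinoma. They carried a control guide in the sgControl group and a Cdk10 guide in the sgCdk10 group, with RNA sequencing of 3 libraries each. Both groups are the same line, and no other treatment is named for either. The sources used here do not say whether the guided cells were clones or pools, where the Cdk10 guide cuts, or whether serum was withdrawn. No label ties the libraries to separate cultures, so a p-value here reflects the spread among 3 libraries that could be technical replicates.

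The primary cilium is a microtubule-based antenna that grows from the mother centriole, mainly in cells outside mitosis, and is taken down before division. IFT trains carry cargo along it, outward with kinesin-2 through the IFT-B complex and back with dynein-2 through the IFT-A complex. The BBSome moves membrane receptors out of the cilium, and the transition zone is the gate at its base. CDK10 with its cyclin, encoded by Ccnq, is known to restrain cilium formation, through the kinase PKN2 and actin organised by RhoA, so the comparison asks whether mRNAs of the cilium machinery differ in cells with the Cdk10 guide.

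Library totals ran from 17532202 to 19258309 counts. For Cdk10 itself, the targeted gene, the sgControl libraries held 381, 344 and 365 counts and the sgCdk10 libraries 204, 227 and 202. Its log2 fold change was -0.82 (SE 0.08, with adjusted p = 8.42e-09 in edgeR). Its exons overlap those of Spata2l and Gm45842, and mRNA does not measure the protein. On a principal component analysis the groups parted on the first axis (52.2% of the variance), and sgControl replicate 3 lay away from the other libraries on the second (16.6%). Without that library 9 cilium genes were called lower and 3 higher, the same counts as with it, but Arl6 was called (adjusted p = 0.0457) and Ttbk2 was not (adjusted p = 0.0808). The number called higher was 5 without sgCdk10 replicate 1 and 1 without sgCdk10 replicate 3. Of all genes tested, 42.5% were called with all libraries and 44.3% without sgControl replicate 3. That share was 34.9% without sgCdk10 replicate 1 and 35.3% without sgCdk10 replicate 3. Of the 9 markers listed for CT26 cells, Vim was the most abundant, at 3610 to 3830 CPM (counts relative to the TMM-scaled library total) in all 6 libraries, and Krt18 and Krt20 were present. Both keratins were called higher: Krt18 ran from 22.3 to 24.8 CPM in sgControl and from 36.6 to 38.7 CPM in sgCdk10, and Krt20 from 13.3 to 14.5 and from 18.1 to 20.9 CPM. Muc2, near the filter, was called lower, at 0.734 to 0.905 and 0.387 to 0.468 CPM. Their part in the cilium results was not tested. Epcam was at 0 in every library, Cdh1 had at most 1 count and Vil1 at most 2, so the defining markers of polarised epithelium were absent or nearly so. Krt8 had 4 to 12 counts per library and Cdx2 2 to 10, and neither was tested. The 6 leukocyte markers had at most 3 counts in any library. Among endothelial markers Pecam1 had at most 2 counts, Cdh5 at most 1 and Vwf 10 to 19 (not called). The 6 markers of multiciliated cells had at most 5 counts, with Rsph1 and Tekt1 at 0 in all libraries, and summed to 0.226 to 0.452 CPM in sgControl and 0.208 to 0.456 CPM in sgCdk10.

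Cilium genes changed by small amounts in cells with the Cdk10 guide, and most did not pass the test. Of the 37 genes, 9 fell and 3 rose, and 25 were not called by edgeR's quasi-likelihood test at an adjusted p under 0.05. The 9 that fell were Ift140, Ift46, Ift52, Ift88, Ift172, Bbs4, Bbs7, Ttc8 and Kifap3, all subunits of transport complexes, as are most of the 37 genes. The 3 that rose were Bbs12, a chaperone for BBSome assembly, Arl3, a cargo-releasing GTPase, and Ttbk2, a kinase of the basal body. None of the 4 transition zone genes was called. In RNA from whole cultures, fewer expressing cells and less RNA per cell cannot be told apart. The share called was 32.4% (24.3% lower and 8.11% higher), while among all 13442 genes tested 42.5% were called, 20.4% lower and 22.1% higher. The median log2 fold change was -0.026 over the 37 genes and -0.003 over all genes tested. The value for the 37 genes was -0.090 with GC and length offsets, where that for all genes was -0.018. It was -0.053 without sgControl replicate 3, and -0.069, -0.014 and -0.009 on leaving out sgCdk10 replicate 1, 2 or 3. The changes ran from -0.37 for Bbs7 to 0.53 for Bbs12, and 30 of the 37 genes (81.1%) changed by less than 0.25 on the log2 scale, as did 67.2% of all genes tested. The groups did not overlap in CPM for 18 of the 37 genes, 13 with sgCdk10 below sgControl and 5 above, and for 51.3% of all genes tested (24.8% below and 26.6% above).

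**Figure D1:**
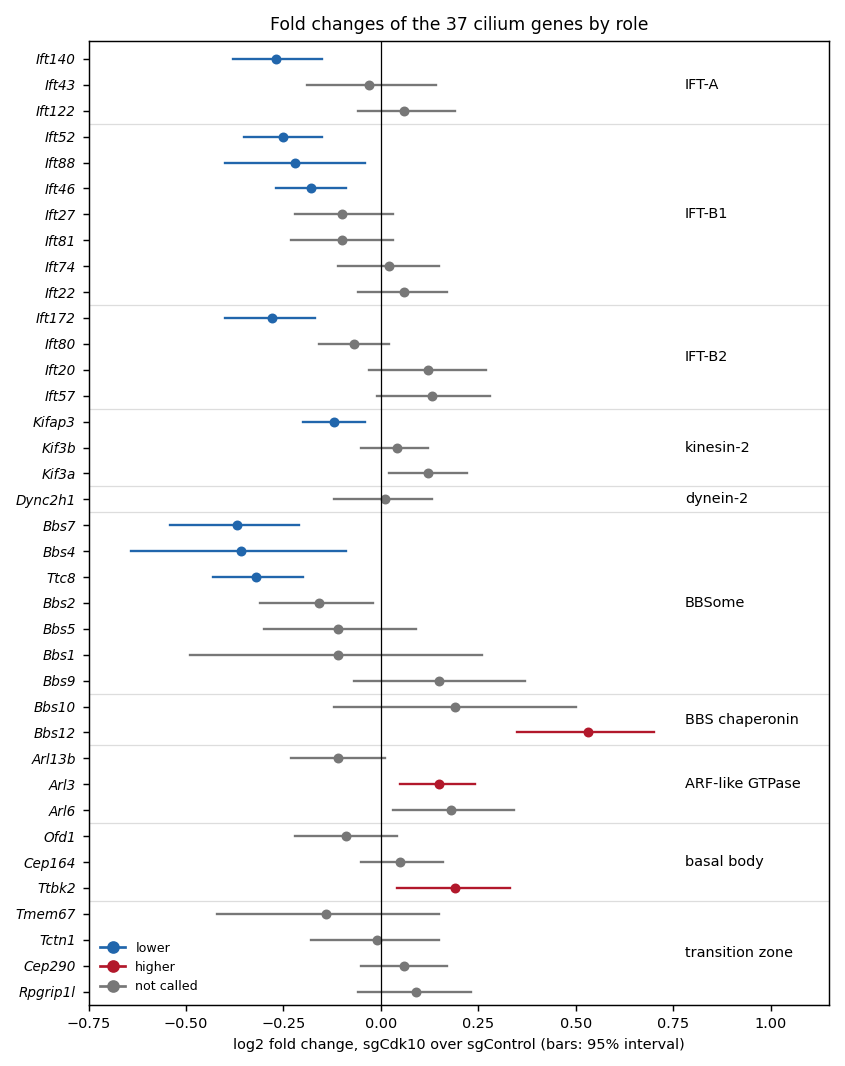
Log2 fold change of sgCdk10 over sgControl for each of the 37 cilium genes, grouped by role (points, with bars for the 95% interval from edgeR's fit on 3 libraries per group). Blue genes were called lower, red genes higher and grey genes not called. The calls lower lie in the IFT, kinesin-2 and BBSome groups, and Bbs12 at 0.53 is the point farthest from 0.

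The BBSome is a coat of 8 proteins, 7 of which are among the genes described here: Bbs1, Bbs2, Bbs4, Bbs5, Bbs7, Bbs9 and Ttc8. Of these, 3 fell and 0 rose (42.9% called, against 42.5% of all genes tested, with 20.4% of all genes tested lower and 22.1% higher). The median log2 fold change of the 7 genes was -0.16. Summed over the 7 genes, the level was 88.8, 94.1 and 94.2 CPM in the sgControl libraries and 78.1, 80.1 and 78.6 CPM in the sgCdk10 libraries, so every sgCdk10 library lay below every sgControl library. Ttc8 and Bbs2 gave the largest parts of that sum.

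Bbs7 encodes a propeller-bearing subunit of the BBSome. It had 15.8, 15.9 and 15.9 CPM in sgControl and 11.5, 13.7 and 11.6 CPM in sgCdk10. The control libraries were nearly equal and all 3 libraries with the guide were lower. The log2 fold change was -0.37 (SE 0.08, with adjusted p = 0.000473 in edgeR). Ttc8, also called BBS8, encodes a subunit built of tetratricopeptide repeats. Its level was 31.4, 30.7 and 32.4 CPM in sgControl and 24.6, 26.4 and 24.9 CPM in sgCdk10, without overlap. It fell by 0.32 on the log2 scale (SE 0.06, with adjusted p = 5.49e-05 in edgeR), the smallest adjusted p among the genes that fell.

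Bbs4, another subunit built of tetratricopeptide repeats, was low and less even. Its counts were 116, 124 and 123 in the controls and 98, 72 and 120 with the guide, or 6.55, 7.01 and 6.79 CPM against 5.41, 4.10 and 6.24 CPM. The third sgCdk10 library nearly reached the lowest control, and the second was far below. The log2 fold change of -0.36 (SE 0.13, with adjusted p = 0.0301 in edgeR) was not called without sgCdk10 replicate 2 (-0.22, adjusted p = 0.197), without sgCdk10 replicate 1 (adjusted p = 0.0624), without sgControl replicate 2 (adjusted p = 0.0824) by DESeq2 (adjusted p = 0.118) or with non-robust dispersions (adjusted p = 0.0507). Its exons also share 194 bases with Adpgk on the opposite strand, and the sources used here do not say whether the counting used strand.

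The other 4 BBSome genes of the set were not called. Bbs2 had 17.6, 19.9 and 19.8 CPM in sgControl and 17.5, 17.3 and 16.3 CPM in sgCdk10, a difference of -0.16 (95% interval -0.31 to -0.02, with adjusted p = 0.0635 in edgeR) that was called only when sgControl replicate 1 was left out (-0.22, adjusted p = 0.026). Bbs5 and Bbs1 had log2 fold changes of -0.11 each. Bbs9 was the 1 BBSome gene with a positive value, 0.15 (95% interval -0.07 to 0.37). Bbs1 had 38 to 46 counts per library, so its interval ran from -0.49 to 0.26 and a change of the size seen in Bbs7 was not detectable at this depth.

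BBSome assembly needs a chaperonin-like complex that includes Bbs10, Bbs12 and Mkks. Bbs12 showed the largest difference of all 37 genes. It had 9.88, 8.94 and 9.99 CPM in sgControl and 14.4, 14.4 and 12.8 CPM in sgCdk10. Every library with the guide lay above every control library, at 1.44-fold on average. The log2 fold change was 0.53 (SE 0.09; 95% interval 0.35 to 0.70, with adjusted p = 2.27e-05 in edgeR), and between 0.48 and 0.58 in the 14 alternative settings. Only 32 bases of its exons overlap another gene on either strand. Mkks, which is not among the 37 genes but stood in a list of further IFT, BBSome and motor genes, rose as well, from 7.23 ± 0.173 to 9.60 ± 0.674 CPM (SD, n = 3), by 0.41 on the log2 scale (SE 0.10, with adjusted p = 0.00142 in edgeR). Exons of Mkks overlap those of predicted genes on its own strand and of Slx4ip on the opposite strand. Bbs10, a gene of 1 exon, was counted 61, 72 and 55 times in the controls and 73, 74 and 73 times with the guide, and its log2 fold change of 0.19 (95% interval -0.12 to 0.50) was not called.

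**Figure D2:**
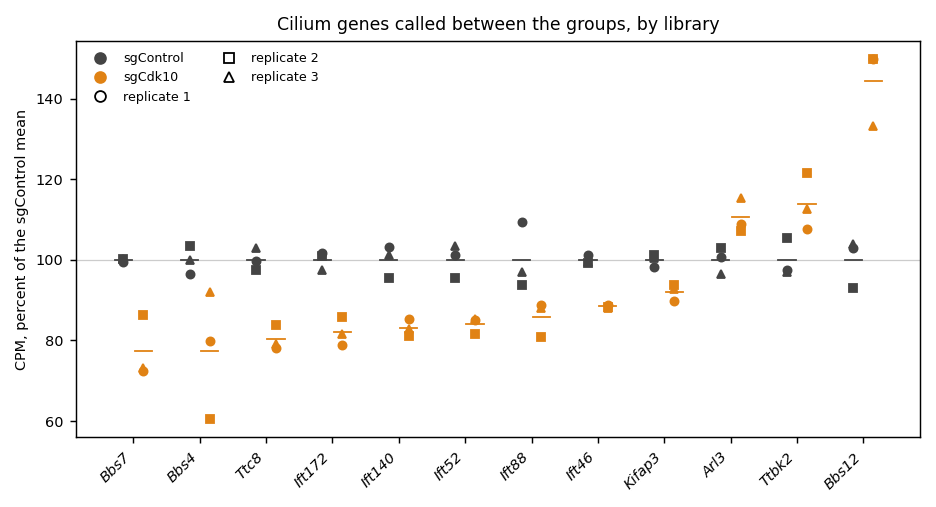
Level of the 12 cilium genes called between the groups in each library, as percent of the gene's mean in sgControl (symbols mark replicates, short lines the mean of 3 libraries). The genes were picked by their calls in these same libraries. In all 12 genes the sgControl and sgCdk10 libraries do not overlap, as in 51.3% of all genes tested. Bbs4 has the widest spread among the sgCdk10 libraries.

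IFT-B, the outbound train, was represented by 11 genes. Of these 4 fell and 0 rose (36.4% called, against 42.5% of all genes tested, with 20.4% of all genes tested lower and 22.1% higher). Their median log2 fold change was -0.10, and the level summed over them was 325 to 330 CPM in sgControl and 303 to 307 CPM in sgCdk10. Ift52, a core subunit that joins the parts of the train, had 46.3, 43.7 and 47.3 CPM in sgControl and 38.9, 37.3 and 39.1 CPM in sgCdk10. The groups stood well apart, with a log2 fold change of -0.25 (SE 0.05, with adjusted p = 0.00016 in edgeR).

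Ift172 encodes the largest IFT-B protein, which acts where trains turn at the ciliary tip. It had 29.4, 29.2 and 28.2 CPM in sgControl and 22.8, 24.8 and 23.6 CPM in sgCdk10. All 3 libraries with the guide were lower, and the log2 fold change was -0.28 (SE 0.06, with adjusted p = 0.000248 in edgeR). Ift46, a core subunit that imports outer dynein arms in motile cilia, had 53.2, 52.1 and 52.3 CPM against 46.7, 46.4 and 46.3 CPM. Its libraries agreed closely within each group, and it fell by 0.18 on the log2 scale (SE 0.04, with adjusted p = 0.00175 in edgeR).

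Ift88, the core subunit disrupted in the Oak Ridge polycystic kidney mouse, had 13.3, 11.4 and 11.8 CPM in sgControl and 10.8, 9.85 and 10.7 CPM in sgCdk10. The groups did not overlap, but the highest control library carried much of the gap. The log2 fold change was -0.22 (SE 0.09, with adjusted p = 0.0461 in edgeR). Without sgControl replicate 1 it was -0.15 (adjusted p = 0.236), and the call was also lost on leaving out sgCdk10 replicate 1, 2 or 3 (adjusted p = 0.0683, 0.172 and 0.0778) and in DESeq2 (adjusted p = 0.194). Non-robust dispersions (adjusted p = 0.055), limma-voom (adjusted p = 0.0581) and no filter (adjusted p = 0.0831) did not call it either. Its 95% interval ran from -0.40 to -0.04, and its exons share 67 bases with the antisense gene Ift88os.

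The other 7 IFT-B genes were not called, with log2 fold changes from -0.10 to 0.13. Ift27, Ift81 and Ift80 had sgCdk10 libraries below every control library, by 0.10, 0.10 and 0.07 on the log2 scale, without passing the test (adjusted p = 0.214, 0.20 and 0.185 in edgeR). With GC and length offsets Ift80 was called (-0.13, adjusted p = 0.0109). Ift20, which also sits at the Golgi and sorts cargo there, and Ift57 had positive values of 0.12 and 0.13. Ift22, a GTPase of the train, was at 0.06 and Ift74, which with Ift81 binds tubulin, at 0.02.

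IFT-A, the return train, was represented by 3 genes, of which 1 fell. The share called was 33.3%, against 42.5% of all genes tested, with 20.4% of all genes tested lower and 22.1% higher. Ift140, a core subunit, had 32.6, 30.2 and 32 CPM in sgControl and 27.0, 25.6 and 26.2 CPM in sgCdk10. The groups did not overlap, and the log2 fold change was -0.27 (SE 0.06, with adjusted p = 0.000337 in edgeR). Ift122, the other core subunit in the set, had 22.1 to 24.0 CPM in sgControl and 23.5 to 25.5 CPM in sgCdk10, a log2 fold change of 0.06 (95% interval -0.06 to 0.19). Ift43, a small peripheral subunit, was at -0.03 (95% interval -0.19 to 0.14). The 95% intervals of Ift140 and Ift122 do not meet, and the difference between the 2 genes was not tested. Ttc21b, Wdr19 and Wdr35, IFT-A genes outside the set, were named after their values were seen. Ttc21b rose by 0.12 on the log2 scale (SE 0.04, with adjusted p = 0.023 in edgeR). Wdr19 and Wdr35 were at -0.13 and 0.05 and were not called.

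Kinesin-2 is the heterotrimer of the motors Kif3a and Kif3b with the adaptor Kifap3, and it also carries cargo outside cilia. Kifap3 had 66.5, 68.6 and 68.1 CPM in sgControl and 60.8, 63.5 and 62.9 CPM in sgCdk10. It fell by 0.12 on the log2 scale (SE 0.04, with adjusted p = 0.0196 in edgeR), the smallest change among the called genes. The call was lost without sgControl replicate 2 (adjusted p = 0.0673), without sgCdk10 replicate 1 (adjusted p = 0.105) and in DESeq2 (adjusted p = 0.0885). Kif3a had 39.1, 39.8 and 38.2 CPM in sgControl and 40.4, 44.8 and 42.1 CPM in sgCdk10, every library with the guide being higher, but its log2 fold change of 0.12 (adjusted p = 0.0527 in edgeR) was called only without sgCdk10 replicate 1 (0.155, adjusted p = 0.0319) or with GC and length offsets (adjusted p = 0.0289). Kif3b was at 0.04 (95% interval -0.05 to 0.12). Dync2h1, the heavy chain of the return motor dynein-2, had 24.9, 24.0 and 25.8 CPM in sgControl and 25.4, 26.4 and 23.3 CPM in sgCdk10. Its log2 fold change was 0.01 (95% interval -0.12 to 0.13), and the groups overlapped fully.

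ARF-like GTPases load and release ciliary cargo. Arl3 releases lipid-modified proteins inside the cilium. It had 46.5, 47.5 and 44.5 CPM in sgControl and 50.3, 49.5 and 53.3 CPM in sgCdk10, without overlap. It rose by 0.15 on the log2 scale (SE 0.05, with adjusted p = 0.0137 in edgeR), a call lost without sgCdk10 replicate 3 (0.11, adjusted p = 0.0967) and in DESeq2 (adjusted p = 0.0835). Arl6, which recruits the BBSome to membranes, had 12.7, 14.3 and 14.1 CPM in sgControl and 14.5, 15.8 and 16.3 CPM in sgCdk10. The groups did not overlap, yet the log2 fold change of 0.18 missed the threshold (95% interval 0.03 to 0.34, with adjusted p = 0.0562 in edgeR) and passed it without sgControl replicate 3 (adjusted p = 0.0457), without sgCdk10 replicate 1 (adjusted p = 0.0447) or with GC and length offsets (adjusted p = 0.0267). Arl13b, which activates Arl3 and is widely used as a marker of the ciliary membrane, was at -0.11 (95% interval -0.23 to 0.01).

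At the basal body, Ttbk2 is the kinase that starts cilium growth after it is recruited by Cep164. Ttbk2 had 16.3, 17.6 and 16.2 CPM in sgControl and 18.0, 20.3 and 18.8 CPM in sgCdk10. All 3 libraries with the guide were above the controls, by a log2 fold change of 0.19 (SE 0.07, with adjusted p = 0.0339 in edgeR). That call was lost without sgControl replicate 1 or 3 (adjusted p = 0.104 and 0.0808), on leaving out sgCdk10 replicate 2 or 3 (adjusted p = 0.188 and 0.0751), with GC and length offsets (adjusted p = 0.124), with no filter (adjusted p = 0.0568) and in DESeq2 (adjusted p = 0.177). Exons of Ttbk2 share 3409 bases with Cdan1 on the same strand, so its count is uncertain. Cep164, a protein of the distal appendages, was at 0.05 (95% interval -0.05 to 0.16), and Ofd1, a centriole and satellite protein, at -0.09 (95% interval -0.22 to 0.04).

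The transition zone was represented by 4 genes, of which 0 were called (42.5% of all genes tested were called). Cep290, which links membrane and microtubules there, had 34.5, 33.4 and 37.2 CPM in sgControl and 36, 36.3 and 37.5 CPM in sgCdk10. Rpgrip1l, Tctn1 and Tmem67, members of the gate's protein modules, had log2 fold changes of 0.09, -0.01 and -0.14. In all 4 genes the groups overlapped. The intervals of Cep290, Rpgrip1l and Tctn1 lay between -0.18 and 0.23, so changes of the size of Bbs12 lay outside them. That of Tmem67, at 74 to 116 counts per library, reached from -0.42 to 0.15. Exons of Cep290 share 881 bases with 4930430F08Rik on the opposite strand. Those of Tctn1 share 1574 with Hvcn1 and 539 with Gm15481, and those of Tmem67 share 289 with Rbm12b2 and 131 with Gm11842, also on the opposite strand. Whether the counting used strand is not stated, so reads of these neighbours may be included.

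Levels per length differed widely between the genes. Averaged over all 6 libraries, the median CPM per kb of merged exon was 4.72 over the 37 genes. It was 6.38 over the 13245 tested genes with a length. The values of single genes that follow are means in sgControl. Arl3 was highest, at 18.5 ± 0.612 in sgControl (SD, n = 3), followed by Kifap3 (16.9 ± 0.279) and Ift52 (16.3 ± 0.658), whose ranges lie close together. Within the other groups the highest were Ift43 for IFT-A (10.6 ± 1.08), Ift20 for IFT-B2, the peripheral part of IFT-B (9.62 ± 0.277), Ttc8 for the BBSome (8.33 ± 0.223), Ofd1 for the basal body (5.05 ± 0.262), Bbs12 for the chaperonin (3.94 ± 0.238) and Cep290 for the transition zone (3.01 ± 0.169). Dync2h1 was at 1.52 ± 0.0547. Bbs1 was lowest, at 0.316 ± 0.0194. The 7 BBSome subunits of the set, which occur together in 1 particle, thus spanned 0.316 to 8.33 CPM per kb at the mRNA level in sgControl. Merged exon length counts every annotated exon, so genes with long rarely used exons are understated.

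**Figure D3:**
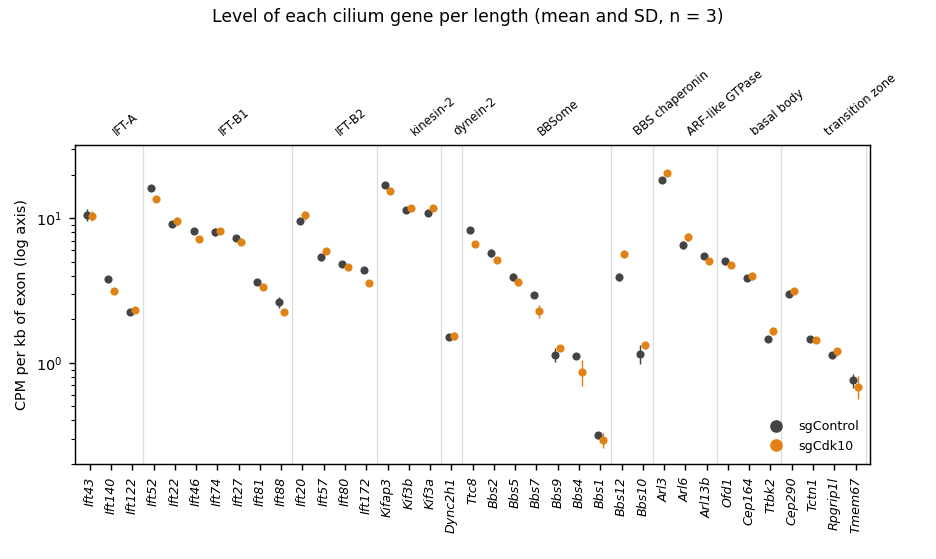
Mean level of each of the 37 genes in CPM per kb of merged exon (log axis; bars are the SD over 3 libraries), sgControl in grey and sgCdk10 in orange, ordered by level within each role. Arl3 is highest and Bbs1 lowest, and the distance between genes is far larger than that between the groups.

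RFX transcription factors bind the X-box, a motif known from promoters of many cilium genes. Windows from 250 bases before to 50 after the RefSeq start (GRCm38.p6) were found for 33 of the 37 genes. They were searched on both strands for the X-box written as GTTNCC and GGNAAC with 1 to 3 bases between them, and for the shorter core GTTGCC, which can overlap it. An X-box was found in 3 of 35 windows (8.57%) of these genes and in 0.796% of 11802 windows of tested genes. The core was found in 13 of the 35 (37.1%) and in 12.7% of windows of tested genes. It was in the windows of 4 of the 9 genes that fell, of 0 of the 3 that rose and of 9 of the 21 with a window that were not called. Of the 3 genes with an X-box, Bbs7 fell and 2 were not called. A match of letters is a description of the window and no evidence of binding. The Bbs7 stretch is shown, as the X-box gene that fell, on the strand of the gene and with the motif in capitals. It lies before every annotated start (chr3:36613493-36613639, minus strand), and its motif ends 108 bases before the RefSeq start.
Bbs7: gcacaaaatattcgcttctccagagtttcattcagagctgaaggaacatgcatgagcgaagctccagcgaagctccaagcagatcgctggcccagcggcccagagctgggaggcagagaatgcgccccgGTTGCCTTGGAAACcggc

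Besides Bbs7, the genes that fell with a core motif were Ift140, Ift172 and Ift88. The stretches below give 30 bases around each, with the core in capitals, which reads GTTGCC on the gene's strand for Ift172 and GGCAAC for the other two. They lie at chr17:25015965-25015994 (plus), chr5:31291097-31291126 (minus) and chr14:57424080-57424109 (plus). Counted from the RefSeq start, the core is at bases -109 to -104 for Ift140, 1 to 6 for Ift172 and 22 to 27 for Ift88. The cores of Ift172 and Ift88 thus lie at or after the start.
Ift140: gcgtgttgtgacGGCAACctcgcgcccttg
Ift172: tgtcgcactcacGTTGCCtgtgcgtcagcg
Ift88: ggagtcgcgcctGGCAACggctgggcgtcc

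Of the RFX factors themselves, Rfx1 fell from 59.8 ± 3.64 to 49.8 ± 0.563 CPM (SD, n = 3), with a fitted log2 value of -0.26 (SE 0.05, with adjusted p = 6.86e-05 in edgeR). Rfx3, known as an activator of cilium genes, rose from 14.0 ± 0.631 to 18.2 ± 0.773 CPM, by 0.38 (SE 0.07, with adjusted p = 0.00011 in edgeR). In the list of RFX factors and motile cilia genes, 7 of 18 genes in the table could be tested, of which 2 rose and 1 fell (42.9% called, near the 42.5% of all genes tested). The other called gene was Rfx7, at 0.14, named after its value was seen and not called with GC and length offsets (adjusted p = 0.153).

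Further genes of the pathway moved in both directions too. Of 17 tested genes of other IFT, BBSome and motor proteins, 4 fell and 2 rose (35.3% called, against 42.5% of all genes tested), with a median log2 fold change of -0.02. Wdr34, an intermediate chain of dynein-2, fell from 25.0 ± 0.732 to 20.9 ± 0.530 CPM (SD, n = 3; log2 fold change -0.26, SE 0.06, with adjusted p = 0.000921 in edgeR), while the heavy chain did not pass the test. Of 17 other transition zone genes 2 fell and 3 rose (29.4% called, against the same 42.5%), with a median of -0.05. Tmem17, a membrane protein of the gate, fell from 4.99 ± 0.194 to 3.05 ± 0.335 CPM (log2 fold change -0.71, SE 0.14, with adjusted p = 0.000279 in edgeR), and Ahi1, another protein of the gate, rose by 0.28 (SE 0.06, with adjusted p = 0.000329 in edgeR). Of 17 other basal body, appendage and vesicle genes 6 fell and 5 rose (64.7% called, against 42.5%), with a median of -0.04. Cep89, a distal appendage protein, rose by 0.33 (SE 0.05) and Pcm1, the scaffold of centriolar satellites, by 0.15 (SE 0.03) on the log2 scale (adjusted p = 3.08e-06 and 0.00015 in edgeR).

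Of 12 tested genes that restrain cilia or take them down, 6 fell and 3 rose (75% called, against 42.5% of all genes tested), with a median log2 fold change of -0.08. Several of them also act in mitosis. Mphosph9, which recruits the cap of the mother centriole, fell from 45.9 ± 1.34 to 34.4 ± 0.637 CPM (SD, n = 3; log2 fold change -0.42, SE 0.05, with adjusted p = 1.53e-07 in edgeR), and the kinase gene Nek2 fell from 122 ± 2.30 to 102 ± 2.66 CPM (log2 fold change -0.25, SE 0.03, with adjusted p = 1.35e-06 in edgeR). Aurka, the kinase that triggers disassembly, rose by 0.18, Tbc1d30 by 0.40 and Cep97, a partner of the cap protein Ccp110, by 0.67 on the log2 scale; these 3 were picked with their values known. Ccp110 itself, also named after its value was seen, fell by 0.26 (adjusted p = 0.000135 in edgeR).

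Hedgehog signals pass through the primary cilium in mammals, and Ptch1, the receptor, and Gli1 are known transcriptional targets. Hedgehog ligands were at or near 0: Shh and Dhh had 0 counts in all libraries and Ihh 1 to 4. Of 9 tested genes of the pathway 2 rose and 1 fell, so 33.3% were called, against 42.5% of all genes tested. Ptch1 rose from 61.5 ± 2.33 to 80.7 ± 2.97 CPM (SD, n = 3; log2 fold change 0.39, SE 0.04, with adjusted p = 4.6e-08 in edgeR), and Gli3, the main repressor, fell from 106 ± 1.43 to 88.2 ± 1.70 CPM (log2 fold change -0.27, SE 0.03, with adjusted p = 6.48e-07 in edgeR). Gli1 had 4.80 ± 0.717 and 4.21 ± 0.659 CPM (log2 fold change -0.19, 95% interval -0.50 to 0.12), and Smo, the signal transducer, had 264 ± 2.46 and 263 ± 3.59 CPM. Gli1 and Smo were named after their values were seen. Smo was at -0.004 and not called (adjusted p = 0.923 in edgeR), but at -0.10 with GC and length offsets (adjusted p = 0.00711).

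Of the 3 tested genes of CDK10's partners (Ccnq, Pkn2 and Rhoa), 1 fell and 1 rose (66.7% called, against 42.5% of all genes tested). Ccnq was at -0.18 (adjusted p = 0.0439 in edgeR). DESeq2 did not call it (adjusted p = 0.186), nor did the fits without sgControl replicate 1 or 2 (adjusted p = 0.113 and 0.0747) or without sgCdk10 replicate 2 or 3 (adjusted p = 0.192 and 0.193), nor with GC and length offsets (adjusted p = 0.192), limma-voom (adjusted p = 0.0521), no filter (adjusted p = 0.0642) or non-robust dispersions (adjusted p = 0.0507). Rhoa was at 0.09 (adjusted p = 0.0106 in edgeR), a call lost without sgControl replicate 2 (adjusted p = 0.0508) or sgCdk10 replicate 3 (adjusted p = 0.0549) and with GC and length offsets (adjusted p = 0.0502). Pkn2, named after its value was seen, was at -0.07 and not called (adjusted p = 0.0607 in edgeR), but was called without sgControl replicate 1 or 3 (adjusted p = 0.0448 and 0.0316), without sgCdk10 replicate 2 (adjusted p = 0.0281), with the 1 CPM filter (adjusted p = 0.0491) and with GC and length offsets (-0.13, adjusted p = 0.0001).

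**Figure D4:**
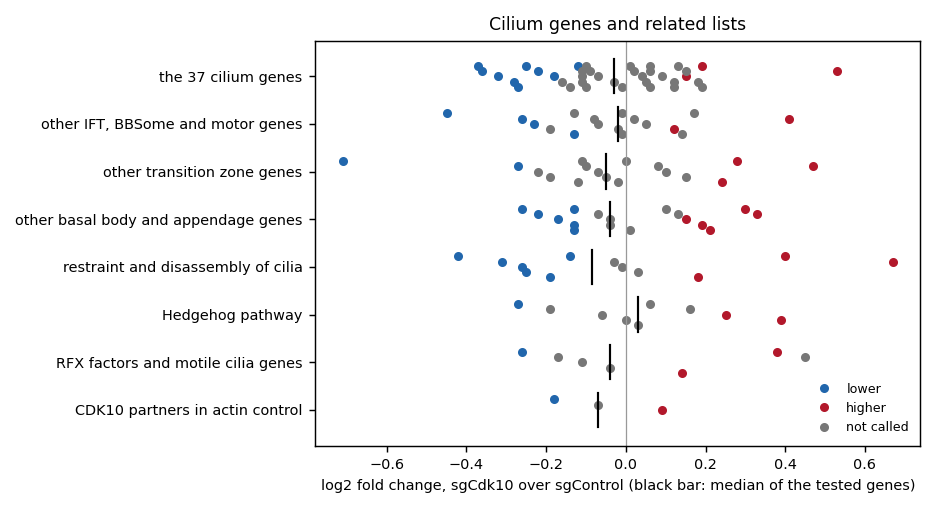
Log2 fold change of sgCdk10 over sgControl for the 37 cilium genes and for each tested gene of 7 related lists (1 point per gene, black bar at the median of the list). Genes called lower (blue) and higher (red) occur in every list, and the medians lie between -0.08 and 0.03.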

How the data were processed

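The authors deposited 1 table of raw counts per Ensembl gene for 6 libraries of total RNA; the counts carry no normalization, per the file headers and values. Tools listed in the submitters' processing notes are DESeq2 1.40.2, featureCounts 2.0.3 and HISAT2 2.2.1, with build mm10 and no roles or settings; the annotation release and strand setting are not stated there. Groups and replicate numbers came from the library titles. Symbols, coordinates and exon lengths are from GENCODE M21 (GRCm38).

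Genes were kept by filterByExpr (minimum count 10, minimum total 15), scaled by TMM and tested with edgeR 4.0.16 (robust quasi-likelihood, group as the only term), with Benjamini-Hochberg adjustment over all 13442 genes and a threshold of 0.05. Standard errors were derived from F statistics. CPM use the TMM-scaled totals, and 3 counts correspond to 0.156 to 0.171 CPM, for counting error only. Alternatives were DESeq2 1.42.0, its size factors within edgeR, limma-voom (limma 3.58.1), no filter, a filter of 1 CPM in all libraries of either group, non-robust dispersion, a replicate block, loess offsets for GC content and length (span 0.5) and each library left out. The scripts were tested on simulated data. The members and lists were chosen with earlier results of these data known. The text names every member, the 2 genes of each related list with the smallest p, and others where stated. No gene was analysed here under the symbols Tctn2 and Fam58b. Promoter sequences are shown only for genes that fell and held a motif; the other 2 X-box matches are not reported here.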

Additional observations from a re-analysis of the deposited data

How the results depend on the processing

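Across 14 alternatives, 7 of the 12 called genes (Ift140, Ift46, Ift52, Ift172, Bbs7, Ttc8 and Bbs12) were called in the same direction each time, and none of the 12 changed sign. Of 518 values for single cilium genes, 474 kept direction and side of the threshold, 25 lost a call, 7 gained one and 12 changed sign, all 12 in genes not called in any setting. The number called lower was 6 to 10. The number called higher, 3, was 1 in DESeq2, 2 with no filter, 4 with GC and length offsets and 3 in the other settings on all libraries, and it ran from 1 to 5 with a library left out. Calling over all genes moved too. The share called was 42.5% in the main fit, 33% in DESeq2 and 20.6% of 27130 genes with no filter. With GC and length offsets it was 44.5%, and with a library left out it ran from 34.9% to 44.3%. The median log2 fold change of -0.026 was -0.090 with GC and length offsets, which also gave 2670 rises and 3226 falls over all genes against 2970 and 2747, and it ran from -0.069 to -0.009 with a library left out. GC and length offsets turned Ift122 to -0.013, Dync2h1 to -0.068 and Cep164 to -0.068; the cause was not tested. With a library left out, values ran from -0.098 to 0.053 for Ift43, from -0.028 to 0.049 for Ift74, from -0.032 to 0.059 for Dync2h1, from -0.238 to 0.003 for Tmem67, from -0.034 to 0.022 for Tctn1 and from -0.011 to 0.008 for Smo. The replicate block called 9 cilium genes lower and 3 higher, with a median of -0.024, and 5481 genes in all against 5717. Same-numbered libraries correlated at 0.02, -0.05 and -0.10 in their deviations from the group means, and 1 of 6 libraries correlated best with its own number. The block changed no call among the 37 genes. Depth limits Bbs1, Bbs10, Bbs4 and Tmem67, the members with the fewest counts.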
